A study of Ovis aries with 16 samples.

Results

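MIR194 and LOC114110111 are 2 of the 4920 transcripts in 4 tables of small RNA sequencing from sheep liver and thigh muscle. MIR194 is 1 of 105 rows of the miRNA table, and LOC114110111, a locus annotated as a long non-coding RNA (lncRNA) and known by its identifier only, is 1 of 2973 rows of the lncRNA table. Both were chosen by their deposited values, which were far higher in liver than in muscle, so the difference between the tissues is described below and not tested. The libraries came from 8 female Suffolk sheep of about 21 months, each giving 1 liver library (tip of the left lobe) and 1 muscle library (vastus lateralis), and the animals are separate biological replicates. The mothers of the 4 BPA animals (910, 918, 977 and 984) were injected under the skin with bisphenol A, a compound of plastics that can act on oestrogen receptors, at a daily dose of 0.5 mg per kg between days 30 and 90 of gestation, dissolved in corn oil. The mothers of the 4 control animals (902, 908, 924 and 928) received the corn oil alone. All animals were fasted for 48 hours and had their cycles synchronised with prostaglandin injections 11 days apart, with tissue taken 24 hours after the second. The comparisons ask whether exposure before birth left a difference in these RNAs in adult tissue, and whether it differed between the tissues.

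A miRNA is a short RNA that is cut from a longer hairpin transcript and represses messenger RNAs that pair with its seed. miR-194 is known as a miRNA of liver, gut and kidney epithelium, where the hepatocyte nuclear factors that drive epithelial genes also drive its transcripts, and its gene lies beside that of miR-192 or miR-215 in many mammals. In a small RNA library, reads assigned to a lncRNA locus come from short fragments, which can be pieces of the long transcript or a small RNA encoded inside the locus. The deposited tables do not tell these apart, nor whether a read could be counted in more than 1 of them. By RefSeq genes on ARS-UI_Ramb_v3.0, a sheep assembly that need not be the build behind the files, MIR194 lies within the span of EHD1, a gene of endosomal recycling, and ATG2A, an autophagy gene, follows it. Neither neighbour has a row in the 4 tables. LOC114110111 had no match in that gene table, so its position is not given here.

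The liver libraries of the treatment groups differed in depth. Reads assigned to miRNAs numbered 94393 to 240815 in control livers and 578150 to 1383538 in BPA livers, and reads assigned to lncRNA loci 18344 to 45323 and 102095 to 284321. In muscle the ranges were 471691 to 1044886 for miRNAs and 463009 to 1085241 for lncRNA loci. The table of small nuclear RNAs (snRNAs) had 29981 to 58486 reads in control livers and 877 to 3865 in BPA livers. Shares of all 4 tables thus rest on an unlike mix of RNA classes in the liver groups. Each table was scaled alone within each tissue, so a deposited level (a read count divided by a size factor of the library) has no common scale across tables or tissues, while a share of a table's reads and a ratio of reads within a library do not depend on the size factors.

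MIR194 was an abundant and even miRNA of liver. Its deposited level in control livers was 8514 in animal 902, 7863 in 908, 9972 in 924 and 10615 in 928, and in BPA livers 9409 in 910, 9821 in 918, 9439 in 977 and 9222 in 984. The values of the BPA livers all lay inside the range of the controls. MIR194 ranked 10th of 104 miRNAs with reads in liver, just below MIR30A (14260 ± 3823, SD, n = 8) and just above MIR199A, a miRNA of fibroblasts (9055 ± 2655). Its own mean over the livers was 9357 ± 857 (SD, n = 8), so the ranges of MIR194 and both of these neighbours overlapped. The most abundant liver miRNAs were MIR26A, MIR148A and MIR99A, with 13.5% to 16.7%, 8.55% to 16.5% and 8.07% to 11.3% of miRNA reads.

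As a share of all miRNA reads, MIR194 took 2.58%, 2.21%, 3.0% and 2.74% in the control livers of 902, 908, 924 and 928. In the BPA livers of 910, 918, 977 and 984 it took 2.56%, 2.86%, 2.82% and 2.67%. The exact binomial 95% interval was 2.48% to 2.68% in the shallowest liver (902, 2434 MIR194 reads) and 2.54% to 2.59% in the deepest (910, 35458 reads); intervals here cover counting error only, since the reads carry no molecular identifiers as far as the labels say. The share thus varied by 1.36 times over the 8 livers, more than counting error allows.

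In muscle MIR194 was a minor miRNA, 40th of 100 with reads. Its level in control muscle was 186 in 902, 139 in 908, 129 in 924 and 134 in 928, and in BPA muscle 111 in 910, 107 in 918, 126 in 977 and 206 in 984. Animals 902 and 984, one of each treatment, had the highest values, and the groups overlapped. These levels rest on 98 to 219 reads a library, and the share of miRNA reads was between 0.0167% and 0.0367%, with a median of 0.0211%. MIR107, a miRNA of lipid and insulin metabolism, stood just above at 196 ± 30.2 (SD, n = 8), and MIR379 of the imprinted DLK1-DIO3 cluster just below at 96.7 ± 16.2, against 142 ± 35.3 for MIR194. The ranges of MIR194 overlapped with those of both.

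LOC114110111 had the highest mean level of all lncRNA rows in control and in BPA livers. Its deposited level in control livers was 8804 in 902, 18097 in 908, 19789 in 924 and 13657 in 928. In BPA livers it was 38192 in 910, 40278 in 918, 36699 in 977 and 44724 in 984. The lowest BPA liver lay above the highest control liver. The next row in liver, LOC114118399, had 7105 ± 5218 (SD, n = 8), against 27530 ± 13877 for LOC114110111.

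This 1 locus held a large share of all lncRNA reads of liver. It took 30.7%, 29.9%, 33.8% and 30.2% of them in control livers 902, 908, 924 and 928, and 41.9%, 44.1%, 47.2% and 51.9% in BPA livers 910, 918, 977 and 984. Again no BPA liver overlapped with a control. How many other lncRNA loci separated the groups in this way, in level or share, is not given here. Of 124 loci tested in liver, 35.5% were called, so the separation need not be particular to this locus. The exact 95% interval in the shallowest liver (902, 5625 of 18344 reads) was 30% to 31.3%, far narrower than the gap between the groups. Of the reads of all 4 tables together, the locus took 3.99% ± 0.436 in control livers and 6.97% ± 0.214 in BPA livers (SD, n = 4 each). That total held more snRNA reads in control livers, and on it MIR194 also stood at 1.70% ± 0.203 and 2.27% ± 0.138.

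In muscle LOC114110111 ranked 19th of 1922 lncRNA rows with reads. Its level was 539 in 902, 317 in 908, 350 in 924 and 372 in 928 among controls, and 336 in 910, 281 in 918, 271 in 977 and 418 in 984 among BPA animals. Animals 902 and 984 were again the highest, and the groups overlapped. The rows next to it in order, LOC114112974 at 372 ± 150 and LOC105606221 at 355 ± 62.4 (SD, n = 8), did not differ from its 360 ± 86.5 beyond their spread. It took 0.0420% to 0.0826% of lncRNA reads in muscle, where LOC105604459 and LOC105603743 took 40.5% to 61.6% and 29.9% to 49.3%.

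**Figure D1:**
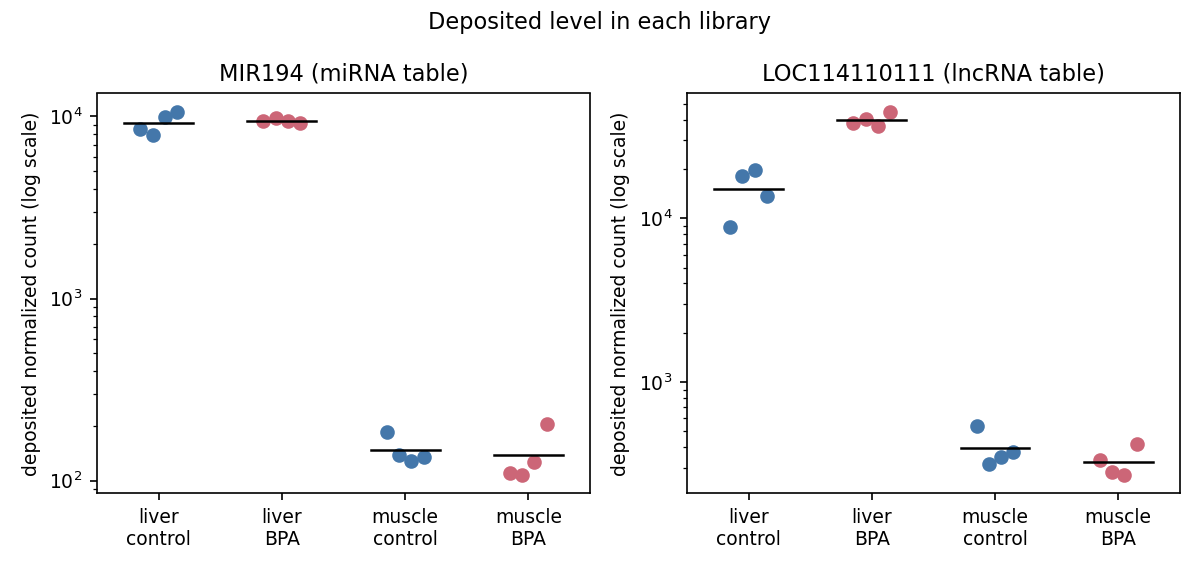
Deposited normalized count (log axis) of MIR194 and LOC114110111 in each of the 16 libraries, by tissue and treatment; points are animals and lines are group means. BPA livers lie above control livers for LOC114110111 (36699 to 44724 against 8804 to 19789) and within the control range for MIR194.

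**Figure D2:**
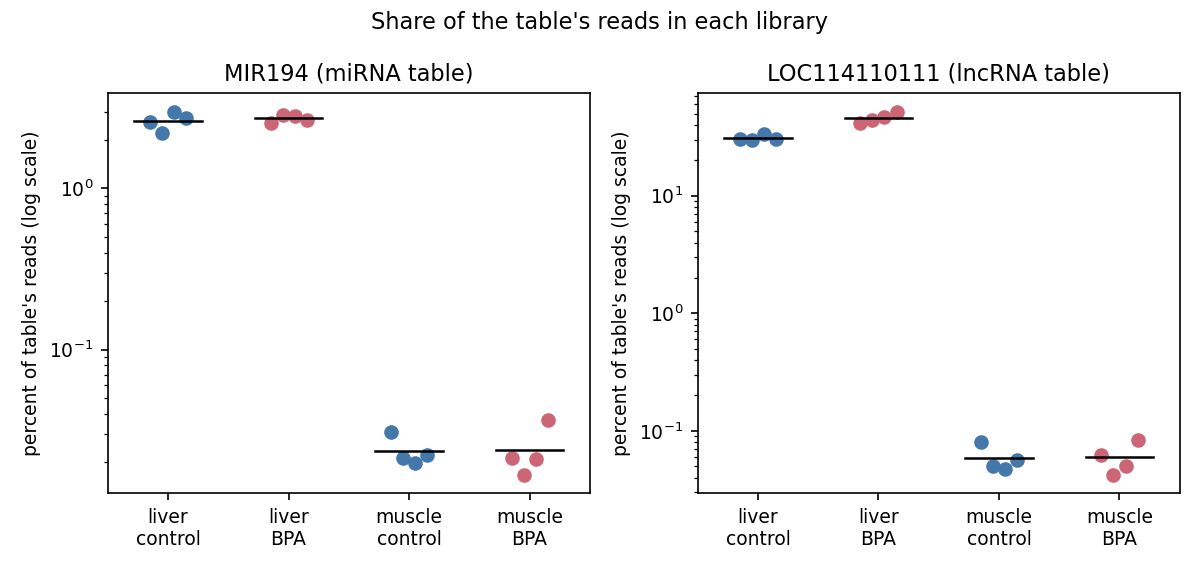
Reads of each member as a percentage of all reads of its table (log axis) in each library; points are animals and lines are group means. In liver LOC114110111 takes 29.9% to 33.8% of lncRNA reads in controls and 41.9% to 51.9% in BPA animals, whereas both members stay under 0.1% in muscle.

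Between the tissues, which the choice of the members used, the log2 difference of muscle from liver was -6.06 for MIR194 and -6.08 for LOC114110111 on the deposited scale. These were the lowest values among 76 miRNAs and 146 lncRNA loci with a mean level of at least 5, whose medians were -0.73 and 0.49, with control and BPA animals pooled. By treatment MIR194 was the lowest in both, at -5.97 in controls and -6.15 in BPA animals. LOC114110111 was the lowest in BPA animals, at -6.95, but in controls, at -5.22, it came after LOC105607806 (-7.24) and LOC101110918 (-5.81), the latter named after its value was seen. After rescaling both tissues together by the median of ratios the differences were -5.48 and -6.48, and on shares of the table -6.86 and -9.37. Within single animals the deposited difference ran from -6.50 to -5.48 for MIR194 and from -7.16 to -4.03 for LOC114110111. The nearest values belonged to MIR200A, an epithelial miRNA (-5.91), and MIR148A, a liver-enriched miRNA (-4.75), in the miRNA table, and to LOC114110055 (-4.34) and LOC105607806 (-3.66) in the lncRNA table. In bulk tissue, fewer cells of a type and less RNA per cell cannot be told apart.

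Marker miRNAs were checked against the tissue labels. Of 10 names of liver-related miRNAs, 2 had a row, MIR194 itself and MIR148A, which was at 31377 to 56888 in liver and 1166 to 1894 in muscle. MIR192, MIR215 and MIR122 matched no row name. The striated-muscle miRNA MIR133, the only match of 6 names, was at 244661 to 373488 in muscle and at 115 to 717 in liver, so each tissue held a low level of the other's marker. Whether such low levels bear on the 98 to 219 MIR194 reads of each muscle library was not tested.

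The proportion of the 2 members in reads varied little between the tissues. This ratio was not among the planned measures and was computed after the values had been seen. Reads of LOC114110111 per MIR194 read numbered 2.31, 2.34, 2.29 and 2.45 in control livers 902, 908, 924 and 928, and 2.73, 2.46, 2.58 and 2.49 in the muscle of the same animals. In BPA animals 910, 918, 977 and 984 they numbered 3.36, 3.08, 2.80 and 3.09 in liver and 2.97, 2.62, 2.46 and 2.56 in muscle. Although either RNA was far lower in muscle, by an amount that depended on the scale, the ratio stayed within 1.47 times over all 16 libraries. Among 88 transcripts with at least 20 reads in every library, LOC114110111 had the smallest such range; the next were MIR148A with 5.08 times and MIR30A with 14 times, and the median was 165 times. Both members were chosen for high liver values, which limits how far their ratio can move between tissues, so this order is a description.

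Within a tissue the choice of the members sets no such limit. In muscle the ratio varied by 1.21 times, the smallest range of 129 transcripts, followed by MIRLET7A with 1.68 times. The chi-square of the 8 muscle ratios per degree of freedom was 0.398, so they differed by less than counting error allows at this depth, and pooled over the 8 libraries the ratio was 2.61 (exact 95% interval 2.44 to 2.80). The livers differed far beyond counting error, with a chi-square per degree of freedom of 175 over all 8, 107 within the BPA livers and 2.42 within the control livers. In liver the range of LOC114110111 (1.47 times) was the smallest of 113 but hardly differed from that of MIR26A (1.47 times), which had a smaller SD of the log2 ratio (0.19 against 0.22).

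**Figure D3:**
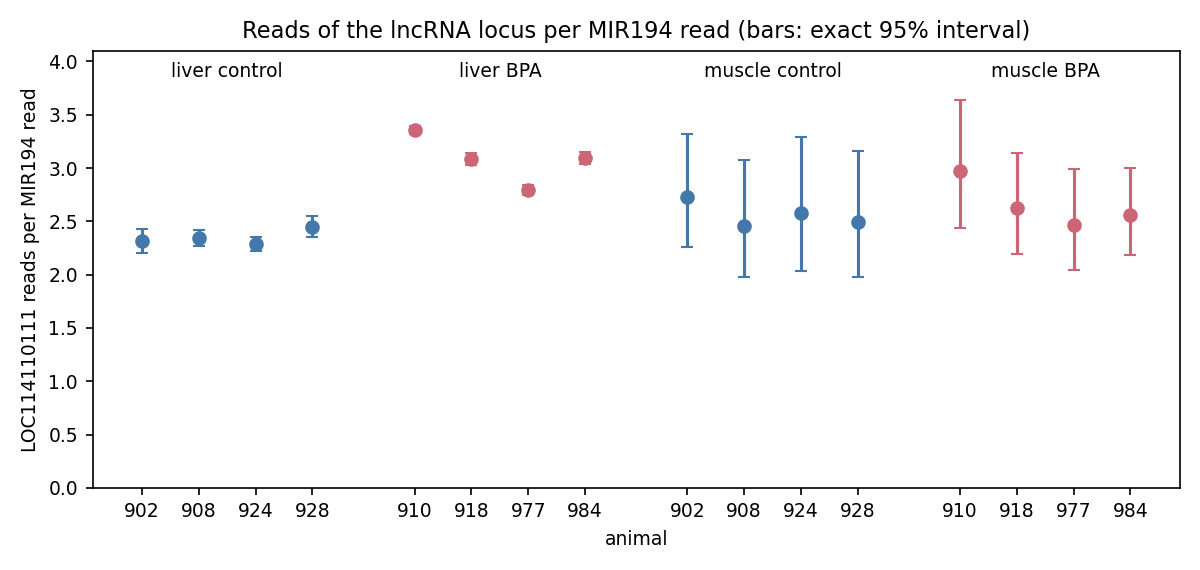
Reads of LOC114110111 per MIR194 read in each library, labelled by animal, with exact 95% intervals for counting error. Control livers lie at 2.29 to 2.45, BPA livers at 2.80 to 3.36 and all muscle libraries at 2.46 to 2.97.

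**Figure D4:**
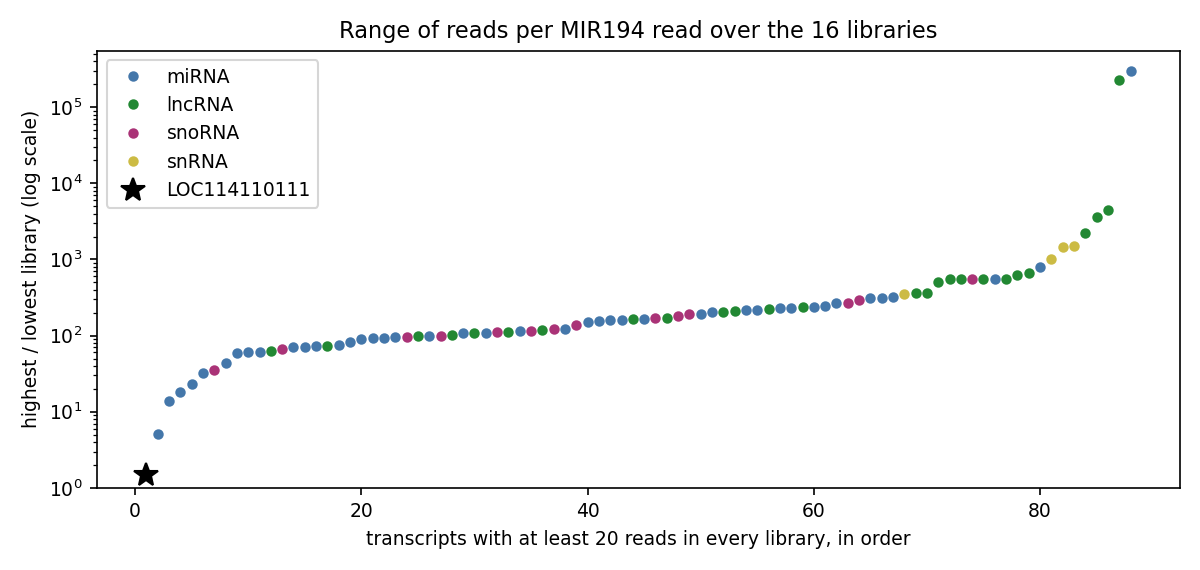
For each of 88 transcripts with at least 20 reads in every library, the highest divided by the lowest number of its reads per MIR194 read over the 16 libraries (log axis), in order. LOC114110111 (star) has a range of 1.47 times, and the next transcript, MIR148A, 5.08 times.

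Prenatal BPA was compared within each tissue with limma on log2(level + 1) over all tested rows of a table. In BPA livers LOC114110111 rose by a log2 fold change of 1.47 ± 0.28 (SE, on the log2(level + 1) scale), from 15086 ± 4922 to 39974 ± 3491 (SD, n = 4 each; limma, BH-adjusted p = 0.0022). Of 124 lncRNA loci tested in liver, 35.5% were called, 16.1% higher and 19.4% lower. This split depended on the scale: 20 loci were higher and 24 lower on the deposited scale, 6 and 36 on shares of the table, 6 and 38 with the size factors of the miRNA table, and 33 and 21 with 1 size factor over the 4 tables. By log2 fold change 21 loci lay above LOC114110111, and the median of all was 0.06. MIR194 did not pass in liver, where its level was 9241 ± 1271 in controls and 9473 ± 252 in BPA animals (SD, n = 4 each). Its log2 fold change was 0.05 ± 0.17 (SE), with a 95% interval of -0.31 to 0.41 (limma adjusted p = 0.9080), while 11.5% of 78 miRNAs were called, 6.41% higher and 5.13% lower (5 and 4 miRNAs). With 1 size factor over the 4 tables the calls were 65 higher and 0 lower. That factor spans all 4 tables, whose mix of RNA classes differed between the liver groups, and the part of this mix in the calls was not tested.

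The size of the rise depended on the scale. The log2 fold change of LOC114110111 in liver was 0.57 on shares of the lncRNA table, 0.44 with the size factors of the miRNA table and 1.90 with 1 size factor over the 4 tables (limma adjusted p = 0.0012, 0.0169 and 9.71e-04; 3.71e-04 to 0.0179 over all settings). It passed under all 21 settings tried. On shares, the locus itself makes up 29.9% to 51.9% of the total of its table in liver. A higher share of the locus thus lowers the shares of all other rows and narrows its own difference. The size of this effect was not tested. The median of the lncRNA table moved with the scale, to -0.83, -0.89 and 0.43, and LOC114110111 stood above it by 1.40, 1.32 and 1.47, against 1.41 on the deposited scale. Each of these scales divides the same reads by 1 factor per library and table, which moves all rows of a table alike. Apart from the 1 added before the log, the distance of either member from the median was thus fixed in advance. Its likeness over the scales gives no support. MIR194 stayed within 0.01 of the median of its own table on the same scales, although its log2 fold change with 1 size factor over the 4 tables was 1.51, where the median miRNA was at 1.51 too (limma adjusted p = 9.17e-04; up to 0.9810 over all settings).

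**Figure D5:**
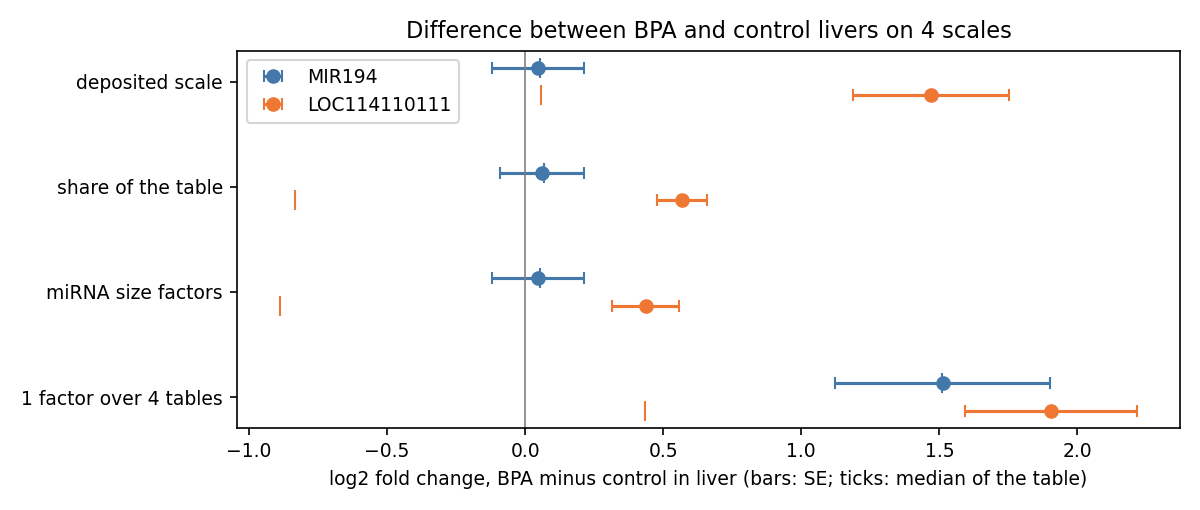
Log2 fold change (BPA minus control in liver, with SE) of MIR194 and LOC114110111 on 4 scales; short ticks give the median over the tested rows of the member's table. LOC114110111 is at 1.47, 0.57, 0.44 and 1.90, each time 1.32 to 1.47 above the median of its table, and MIR194 lies at the median. A change of scale moves all rows of a table nearly alike, so these distances could hardly differ between the scales.

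The library codes in the labels overlap little between the treatments in liver. Among codes up to 79, control liver 902 (code 65) had a LOC114110111 level of 8804 and a share of 30.7%, against 36699 and 47.2% in BPA liver 977 (code 71) and 44724 and 51.9% in 984 (code 72). The other ranges of codes held livers of 1 treatment only. With the code range as a covariate the log2 fold change was 2.20, which compares control liver 902 alone with BPA livers 977 and 984. Without control liver 902, the lowest library, it was 1.23.

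The rise of LOC114110111 also appeared per MIR194 read in liver. MIR194 lay near the median of its table, so this ratio nearly repeats the scale of the miRNA size factors (log2 difference 0.39 against 0.44). It is not a separate result. Reads of LOC114110111 per MIR194 read averaged 2.35 ± 0.0697 in control livers and 3.08 ± 0.229 in BPA livers (SD, n = 4 each), 1.31 times higher. All 4 BPA livers lay above all control livers (two-sided exact permutation p = 0.0286, which is as low as groups of 4 can give, BH-adjusted over 3 tests, 0.0429). How many other transcripts separated the groups per MIR194 read is not given here. Among codes up to 79 the ratio was 2.31 in control 902 and 2.80 and 3.09 in BPA livers 977 and 984. In muscle the means were 2.56 ± 0.122 and 2.65 ± 0.221 (exact p = 0.6000, adjusted 0.6000).

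Of the marker lists, 1 of 3 epithelial miRNAs was called higher in BPA livers (MIR200B, log2 fold change 2.07 ± 0.30, limma adjusted p = 7.08e-04), while MIR200A and MIR200C were at -0.14 ± 0.33 and 0.54 ± 0.63 (0.9028 and 0.6797). MIR200B was at 174 to 453 in control and 980 to 1395 in BPA livers, and the summed level of the 3 epithelial miRNAs was 482 to 1367 and 1504 to 1965. No matched marker was at 0 in any library. The other liver-enriched miRNA, MIR148A, was at -0.05 ± 0.20 (limma adjusted p = 0.9080). None of MIR133, leukocyte MIR150, endothelial MIR221 or the fibroblast and smooth-muscle miRNAs MIR143 and MIR199A was called in liver, with log2 fold changes of -0.05, 0.07, 0.36, 0.12 and 0.50. The erythroid list and the list of named lncRNAs matched no row. The part of these cell types, or of depth, in the rise of LOC114110111 was not tested.

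In muscle neither member passed. LOC114110111 was at 394 ± 99.2 in controls and 326 ± 67.3 in BPA animals (SD, n = 4 each), a log2 fold change of -0.26 ± 0.23 (95% interval -0.76 to 0.24, limma adjusted p = 0.5765), in a table where 5.3% of 151 loci were called, 3.97% higher. MIR194 was at 147 ± 26.4 and 138 ± 46.3, a log2 fold change of -0.13 ± 0.23 (-0.63 to 0.37, adjusted p = 0.8461), and 0% of 70 miRNAs were called. At an unadjusted p under 0.05 there were 3 miRNAs in limma, 4 in edgeR and 4 in DESeq2, and 0 after adjustment in each tool. On shares of the table the differences were -0.02 for MIR194 and 0.01 for LOC114110111.

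The difference of the BPA effect between the tissues was tested over all 16 libraries. For LOC114110111 the interaction was -1.73 ± 0.42 (muscle minus liver, limma adjusted p = 0.0085), against a median of -0.17, and 28.8% of 146 lncRNA loci were called, 17.1% higher and 11.6% lower. The split was 25 higher and 17 lower on the deposited scale, 32 and 1 on shares, 37 and 0 with the miRNA size factors, 32 and 2 in edgeR, 22 and 29 in DESeq2, 24 and 31 rescaled over both tissues, and 17 and 37 with 1 size factor over the 4 tables. Without animal 902 it was -1.33 (limma adjusted p = 0.0066). With the animal as a replicate block its limma adjusted p was 0.0411. It did not pass on shares of the table (-0.56), with the miRNA size factors (-0.48), without the filter on low values (-1.73) or in edgeR (-1.09), with adjusted p of 0.1988, 0.2656, 0.0693 and 0.0602 (1.14e-06 to 0.2656 over all settings). MIR194 had an interaction of -0.18 ± 0.28 (limma adjusted p = 0.7876), and 2.63% of 76 miRNAs were called, 1 higher and 1 lower, against 0 higher and 70 lower with 1 size factor over the 4 tables. For reads of LOC114110111 per MIR194 read, muscle minus liver was 0.22 in controls and -0.43 in BPA animals, a difference of -0.65 (exact permutation p = 0.0286, adjusted 0.0429).

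MIR194 varied little among livers. Around the group means its log2 level had an SD of 0.14, the lowest of 78 miRNAs in liver, whose median was 0.38. Rows with few reads carry more counting error, so an abundant row tends to rank low, and the size of this effect was not tested. The SD of the deposited level was 13.8% of the mean in control livers and 2.66% in BPA livers, so the evenness was mainly in the BPA livers. On shares of the table MIR194 ranked 3 from the lowest, which was MIR99A (0.11). In muscle its SD was 0.35, 44th of 70. LOC114110111 had an SD of 0.38 in liver, 10th of 124, and on shares of its table an SD of 0.11. Since the locus itself makes up 29.9% to 51.9% of that table's reads, a change in it also moves the total, which narrows its spread on that scale. Its order there is thus not comparable with that of minor rows, and the size of this effect was not tested. In muscle it was at 0.31, 28th of 151.

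The members were also related across animals, with 4 relations computed over 8 animals each. In muscle the log2 levels of MIR194 and LOC114110111 had a Pearson r of 0.79 (exact permutation p = 0.0198, BH-adjusted 0.0793) and a Spearman rho of 0.74 (exact p = 0.0458, adjusted 0.1833). As log2 shares of their tables r was 0.94 and rho 0.95 (exact p = 6.20e-04 and 0.0011, adjusted 0.0025 and 0.0046). The read totals of the miRNA and lncRNA tables were similar within a muscle library (479731 and 502437 in 902, 596919 and 677753 in 984). Both shares thus have nearly the same divisor, which can raise r by itself. Without animals 902 and 984, the farthest from the median of MIR194, r was 0.37 for levels and 0.78 for shares (exact p = 0.4500 and 0.0792). As deviations from the treatment means r was 0.79 and rho 0.31 (exact p = 0.0328 and 0.4618, adjusted 0.1313 and 0.6157), and without the same animals r was -0.49 (exact p = 0.3069). On levels the relation thus rests on those 2 animals. In liver r was 0.21 and rho 0.05 (exact p = 0.6110 and 0.9349, adjusted 0.6110 and 0.9349), and without animals 908 and 928 r was 0.58. Liver and muscle of the same animal gave r = -0.37 and rho = -0.50 for MIR194 (exact p = 0.3702 and 0.2162, adjusted 0.4936 and 0.4323; r = -0.69 without 908 and 928). For LOC114110111 they gave r = -0.61 and rho = -0.33 (exact p = 0.1038 and 0.4279, adjusted 0.2077 and 0.5705), and r was 0.04 without 902 and 928.

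By likeness of pattern within the miRNA table, MIR148A, MIR30A and MIR200A had the highest Pearson r with MIR194 over the 16 libraries (0.99, 0.98 and 0.98), as a description that the difference between the tissues dominates. Over the 8 livers alone they were MIR487B, MIR221 and MIR154B (0.77, 0.61 and 0.57), and over the 8 muscles MIR200B, MIRLET7A and MIRLET7B (0.73, 0.72 and 0.70). For LOC114110111 they were LOC101112520, LOC114116893 and LOC114110055 over 16 libraries (0.94, 0.93 and 0.91). LOC105603102, LOC105605445 and LOC114110055 were nearest over the livers (0.96, 0.96 and 0.95), where all of these loci share the size factors of the table. These r pool control and BPA livers, and the nearest loci were themselves called higher in BPA livers. The log2 fold changes were 1.80 ± 0.50 for LOC105603102 and 1.56 ± 0.46 for LOC105605445 (limma adjusted p = 0.0162 and 0.0203). The part of this shared difference in r was not tested. LOC114110055 was at 9.39 to 34.9 in control livers, 94.7 to 241 in BPA livers and at most 10.4 in muscle (BPA in liver, log2 fold change 2.74 ± 0.52, limma adjusted p = 0.0022). Over the 8 muscles LOC101120180 had the highest r (0.84).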

How the data were processed

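Small RNA libraries of 8 livers and 8 muscles were sequenced, in 4 groups of 4, per the labels. Per the submitters' processing notes, cutadapt 3.2, STAR 2.6.0c and featureCounts 1.6.1 were used, with no roles stated. Not given in the sources used here are the build and annotation. What the authors deposited are normalized counts, a signal in which each read count is divided by 1 size factor per library and table. Whole reads were recovered for 100% of values (tolerance 0.001), and shares (for tests, reads scaled to a common table total) and ratios were taken from these reads. R 4.3.3 ran limma 3.58.1 with its trend option on log2(value + 1) for rows with a mean of at least 5, two-sided, with Benjamini-Hochberg adjustment over each table and a threshold of 0.05. edgeR 4.0.16 and DESeq2 1.42.0 on recovered reads, and other scales, were alternatives. The scripts were tested on simulated data with the same fixed spread of counts for all rows. That spread need not match these data, so the simulation gives no error rates for them. Numbers pair liver and muscle because they mark animals, but same-animal deviations correlated by only -0.35 to 0.24 over 222 rows; libraries of 1 group all differed by more than counting noise (chi-square per degree of freedom at least 14.5). Members and lists were chosen with earlier results of these data known. Named rows are marker lists, order neighbours, the lowest tissue differences and the 3 rows most like each member. Likeness over the 8 muscles, the read ratio, the miRNA size factors for the lncRNA table and the order of tissue differences by treatment were added after seeing the data.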

Additional observations from a re-analysis of the deposited data

Results flagged for a closer look

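MIR194 in control muscle of animal 902, at 186, lay far from the other 3 control muscles (129 to 139). Of 20 groups of 4 examined this was 1, and chance gives about 1 in 20. LOC114110111 was also highest there among controls, at 539.

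On the deposited scale the BPA effect on LOC114110111 differed between the tissues, with a log2 interaction of -1.73 (limma adjusted p = 0.0085, and 1.14e-06 to 0.2656 over all settings). In that test 28.8% of 146 lncRNA loci were called. With the animal as a replicate block the limma adjusted p was 0.0411. The interaction did not pass on shares of the table, with the miRNA size factors, without the filter on low values or in edgeR. For reads of LOC114110111 per MIR194 read, the BPA effect differed by -0.65 in muscle relative to liver (exact permutation p = 0.0286, the smallest possible). This ratio uses the same reads of the locus and so is not independent, and it was added after the values had been seen. The ratio fell from liver to muscle in all 4 BPA animals and rose in all 4 controls.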

How the results depend on the processing

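The rise of LOC114110111 in BPA liver passed under every alternative tried, from 0.44 (miRNA size factors) to 2.20 (library code range, control liver 902 alone). Leaving out each animal gave 1.23 to 1.62 for it and -0.0285 (without 908) to 0.12 for MIR194 in liver, -0.39 to -0.10 and -0.34 to -0.01 in muscle, and -1.94 to -1.33 and -0.40 to -0.02 for the interactions. With 1 size factor over the 4 tables MIR194 was at 1.51 in liver and -2.15 in the interaction. On shares of the table LOC114110111 was at 0.0098 in muscle and -0.56 in the interaction, where miRNA size factors gave -0.48, edgeR -1.09 and no filter -1.73. The replicate block gave -1.73 for LOC114110111 and -0.18 for MIR194 and changed neither call. With both tissues from every animal, a block cannot move these values or the tissue differences of -6.06 and -6.08, so only the calls were at stake. The tissue difference of MIR194 was -5.48 rescaled and -6.86 on shares, and that of LOC114110111 -9.37 on shares; without single animals they were -6.14 to -6.00 and -6.38 to -5.93. Shares of all 4 tables' reads were 1.99% in liver and 0.0114% in muscle for MIR194, and 5.48% and 0.0299% for LOC114110111. Without the most abundant other row of the table MIR194 took 3.16% and 0.0497%, and LOC114110111 0.133% in muscle. The SD of LOC114110111 in liver was 0.11 on shares. Across animals, r of both members in muscle was 0.94 on shares and 0.72 to 0.84 without single animals; in liver it was -0.0795 (without 902) to 0.55. Between tissues r was -0.55 to -0.22 for MIR194, and 0.093 on shares and -0.86 (without 984) to -0.19 for LOC114110111. The BPA difference in the read ratio was 0.64 to 0.83 in liver and -0.0174 (without 910) to 0.15 in muscle. The cause of these changes was not tested. Over the alternatives other than the code range, called miRNAs numbered 4 to 65 in liver (9 in the tests above) and 0 in muscle. In the interaction they numbered 0 to 70 (2, and 0 with the block). Called lncRNA loci numbered 24 to 54 in liver (44), 7 to 10 in muscle (8) and 20 to 55 in the interaction (42). Depth limits the muscle values, which rest on 98 to 219 MIR194 reads.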
